A study of Mus musculus with 2 samples.

Results

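Recurrent HC/CH sites were autosomal CpG dinucleotides at which 5-hydroxymethylcytosine (hmC) opposite an unmodified cytosine made up at least 25% of the calls in each of 2 replicates. HC stands for hmC on the plus strand opposite C, and CH for hmC on the minus strand opposite C. Of the 4494645 autosomal CpG sites present in both replicates, 14689 (0.327%) met this rule. They were selected on their measured HC and CH levels, so these levels are given as a description. The samples were 2 replicates of E14 mouse embryonic stem cells (mESCs), an established line, grown in serum with LIF and taken from different passages. Genomic DNA was profiled by SCoTCH-seq, which keeps the strands of each fragment tethered and so reads C, mC and hmC on both strands of a single DNA molecule, giving 9 possible CpG states. All cells had the same genotype and treatment, and no control group enters the values below. As both replicates come from a single line in a single medium, their agreement speaks for these cultures only.

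In mammals, mC is written at CpG sites by DNA methyltransferases, and the maintenance enzyme copies it onto the new strand after replication, so that most methylated sites carry mC on both strands (MM). TET dioxygenases oxidise mC to hmC. An HC or CH site therefore has an oxidised cytosine on a single strand of the duplex and no modification on the other, unlike HM or MH, where hmC faces mC, and HH, where both strands carry hmC.

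To show the kind of sequence at which these calls recurred, 6 of the 12 sites chosen by level and depth (at least 10 calls in each replicate, then the highest level in the lower replicate) are printed here as 61 bases of the plus strand of the reference GRCm38.p6 (RefSeq), with the CpG and its neighbouring base on each side in capitals.
chr8:94189247-94189307, outside protein-coding genes, nearest start site Mt1: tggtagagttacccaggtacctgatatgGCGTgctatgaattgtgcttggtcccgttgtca
chr1:181968170-181968230, first intron of Enah: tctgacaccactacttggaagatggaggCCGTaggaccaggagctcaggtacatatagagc
chr16:33555256-33555316, later intron of Slc12a8: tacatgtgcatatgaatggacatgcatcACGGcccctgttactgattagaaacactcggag
chr3:121722588-121722648, promoter of F3: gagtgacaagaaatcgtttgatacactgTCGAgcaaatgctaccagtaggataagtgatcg
chr12:71301255-71301315, outside protein-coding genes, nearest start site Dact1: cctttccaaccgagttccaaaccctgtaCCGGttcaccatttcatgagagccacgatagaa
chr3:104804565-104804625, coding exon of Mov10: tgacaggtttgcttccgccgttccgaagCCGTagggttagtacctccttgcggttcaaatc

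At the site 10194 bp from the start of Mt1, a metallothionein gene, 7 of 13 calls in replicate 1 were HC or CH (53.8%, 95% exact binomial interval 25.1 to 80.8) and 6 of 11 in replicate 2 (54.5%, 23.4 to 83.3). Its other calls in replicate 1 were 3 CC and 3 MM. Unmodified and fully methylated molecules were thus found at the same CpG in the same culture. In the first intron of Enah, which encodes an actin regulator, 5 of 10 calls were HC or CH in each replicate, with 2 HC and 3 CH both times. The site in Slc12a8, a solute carrier gene, held 14 HC and CH calls in all, the highest number at any shared site. There were 8 HC or CH among 19 calls in replicate 1 and 6 among 12 in replicate 2. The calls in replicate 1 were split evenly between HC and CH, whereas all 6 in replicate 2 were HC.

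The site 920 bp from the start of F3, the gene of the coagulation initiator tissue factor, was the only promoter site of the 12. It showed 5 of 11 and 5 of 12 HC or CH calls. Near Dact1, which encodes a modulator of Wnt signalling, 8 of 19 and 4 of 10 calls were HC or CH. It had 9 and 4 MM calls and 0 CC among 29 calls in all, which allows a CC share of up to 10.3%. At the other 11 sites CC and MM were both called in the sum of the replicates, though with a single CC call at the Enah site and a single MM call at the site near Ddit4. In a coding exon of Mov10, an RNA helicase gene, 8 of 12 calls in replicate 1 and 4 of 10 in replicate 2 were HC or CH. The other 6 sites lay 19391 bp from the start of Ddit4 (an inhibitor of mTORC1 signalling), in first introns of C1qtnf7, Dgkd (a diacylglycerol kinase) and Wasf3 (an actin regulator), and outside protein-coding genes with Gm12166 and Tmem132d as the nearest start sites. Over the 12 sites, HC plus CH ran from 40% to 66.7% in replicate 1 and from 40% to 54.5% in replicate 2. In 8 of them HC and CH were both called in each replicate, so the hmC was found on either strand.

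The depth behind these values was low and unequal. Shared autosomal sites held 54136766 calls in replicate 1 (median 11 per site) and 28824575 in replicate 2 (median 6), and every deposited site had at least 5. The recurrent sites themselves were shallower in replicate 1, with a median of 9 calls and a mean of 9.80 against 12 over shared sites, and alike in replicate 2, with a median of 6 and a mean of 6.46 against 6.41. At 10587 of the recurrent sites (72.1%) the level in replicate 2 rested on 2 HC or CH calls, and at 4019 (27.4%) it rested on 2 calls in each replicate. At least 3 calls in each were made at 2765 recurrent sites (18.8%) and at least 4 in each at 344. The intervals cover counting error only, since PCR copies were removed with Picard and no molecular identifiers are described. Calls were used as deposited, without correction by the spike-in controls. In fully methylated lambda DNA, HC and CH made up 0.153% and 0.0863% of calls in the replicates, and the highest of its 3111 sites reached 5.13% and 3.85%. In unmethylated pUC19, the highest of 173 sites reached 0.186% and 0.592%. No control site reached 25% in either replicate, which allows a share of up to 0.0964% of sites for lambda and 1.73% for pUC19. These controls hold only fully methylated or unmodified CpG sites. They do not measure how often molecules with mC opposite C, or with hmC opposite mC, are miscalled as HC or CH. Calls of mC opposite C made up 13.8% and 14.8% of calls at shared sites in replicates 1 and 2. The controls were read much more deeply than the genome, with median depths of 137 and 85 calls for lambda.

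The number of recurrent sites was far above that given by independent draws. HC plus CH made up 4.01% of calls at shared sites in replicate 1 and 3.60% in replicate 2. If each site were drawn from these mean levels at its own depth, 769 sites would reach 25% in both replicates, against 14689 observed, which is a ratio of 19.1. In replicate 1 alone 130374 sites (2.9%) reached 25%, against 46825.8 expected, and in replicate 2 alone 150370 (3.35%), against 74319.4. Independent replicates with these observed shares would have 4362 sites in common, so the overlap was 3.37 times that number. The expectation assumes a single level for all sites. With the mean level of the 100 kb window around each site instead, 1684 sites were expected and the ratio was 8.72.

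The ratio depended on depth. At sites with 5 to 8 calls in replicate 2, where 2 HC or CH calls are enough, it lay between 17.0 and 19.6. At sites with 9 calls, where 3 are needed, it was 68.7, and at 10 or more it was 68.8. With at least 3 HC or CH calls required in each replicate, 2765 sites were observed against 19.8 expected, a ratio of 140. Just inside the limit, 1846 recurrent sites under 30% in each replicate had levels of 26.5% and 27.0%. Just outside it, 36810 other sites at or above 20% in each replicate, of which some passed 25% in a single replicate, had 25.3% and 25.2%.

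**Figure D1:**
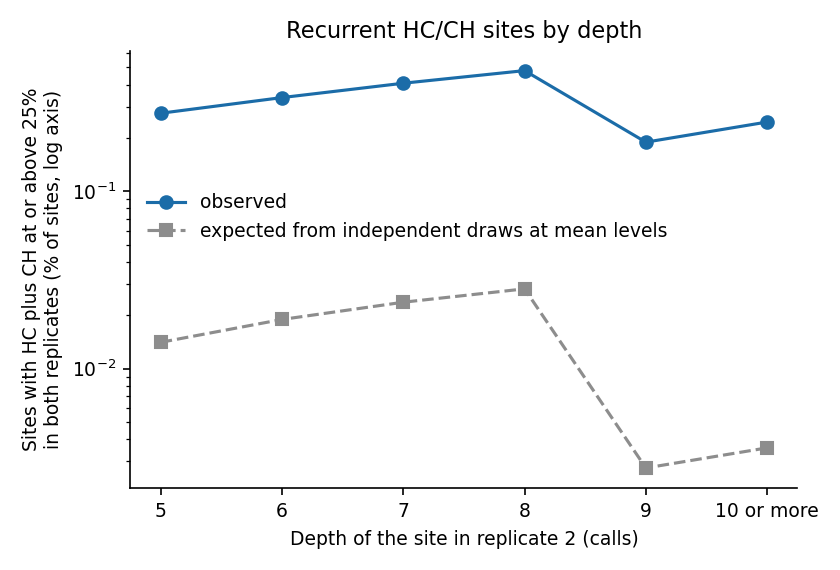
Percent of shared autosomal sites with HC plus CH at or above 25% in both replicates (y axis, log scale) by depth in replicate 2 (x axis, calls), observed (circles) and calculated for independent draws at the mean levels (squares). Observed shares lie between 0.189% and 0.479%, above the calculated share at every depth.

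Sites chosen in a single replicate were also higher in the other, whose calls the choice did not use. The 130374 sites at or above 25% in replicate 1 had 8.99% HC plus CH in replicate 2 (95% interval 8.93 to 9.05), against 3.44% for the remaining shared sites. The 150370 sites chosen in replicate 2 had 8.85% in replicate 1 (8.81 to 8.90), against 3.85%. Both differences were found on 19 of 19 autosomes. The levels in the other replicate were well under the 25% used to choose the sites. Of the sites chosen in replicate 1, 11.3% reached 25% in replicate 2, against 3.11% of the remaining shared sites. Of those chosen in replicate 2, 9.77% reached it in replicate 1, against 2.66%.

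The level in the other replicate was higher where more calls had supported the choice. Sites chosen on 2 HC or CH calls in replicate 1 had 8.04% in replicate 2, those chosen on 3 calls 9.06%, and those on 6 or more 12% (11.6 to 12.3). In the other direction the levels were 8.42% for 2 calls, 10.0% for 3 and 13.2% (11.8 to 14.7) for 6 or more. The recurrent sites themselves had 32.2% and 36.4% HC plus CH, values that carry the selection.

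**Figure D2:**
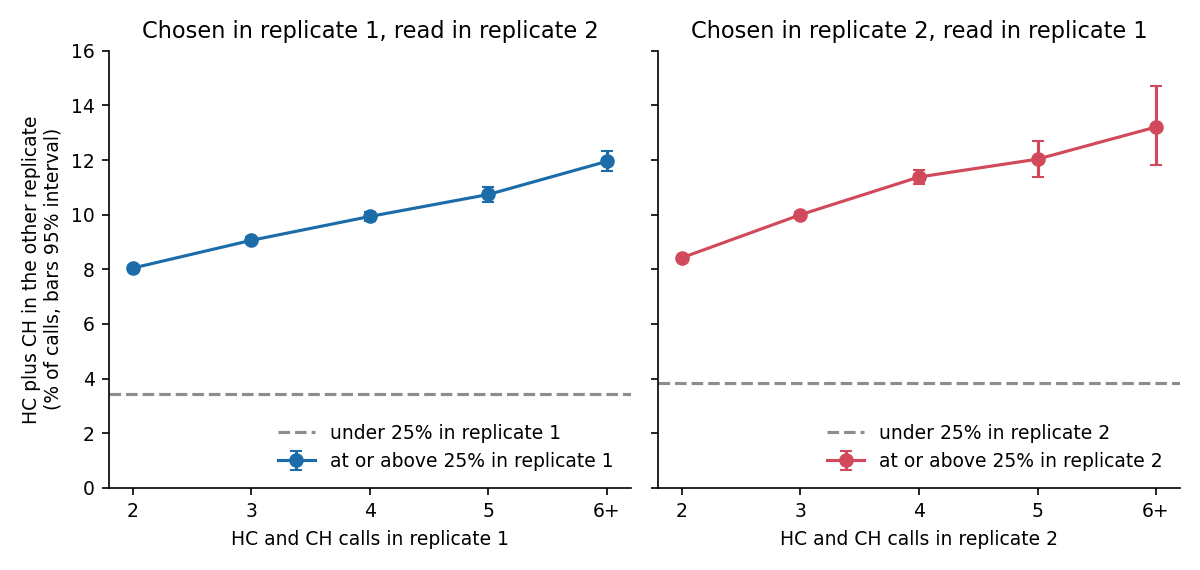
HC plus CH (percent of calls, y axis) in the replicate not used for the choice, by the number of HC and CH calls in the choosing replicate (x axis), with 95% exact binomial intervals and dashed lines for sites under 25% in the choosing replicate. Levels go from 8.04% to 12% on the left and from 8.42% to 13.2% on the right, all above the dashed lines at 3.44% and 3.85%.

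The calls other than HC and CH at recurrent sites held more CC and less MM than those at all shared sites. CC made up 32.1% ± 4.58 (SD, n = 2) of these remaining calls, with 35.3% in replicate 1 and 28.9% in replicate 2. Over all shared sites it was 21.6% ± 2.45 (23.3% and 19.9%). MM made up 47.0% ± 3.28 (44.7% and 49.3%), against 59.9% ± 3.1 (57.7% and 62.1%). The replicate values of recurrent sites and of all sites did not overlap for either state, and both directions were found on 19 of 19 autosomes in each replicate. At recurrent sites, whose choice used both replicates, the direction for CC depended on the scale. As a percent of all calls, which the rule caps for every state other than HC and CH, CC was 24.0% at recurrent sites against 22.4% over all shared sites in replicate 1, but 18.3% against 19.1% in replicate 2. MM was lower on this scale too, at 30.3% against 55.4% and 31.4% against 59.9%. With 2 replicates of a single group no test of these differences was made.

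The other hmC states were also more common. The share of HM plus MH in the remaining calls was 8.40% ± 0.0483 at recurrent sites, with 8.37% and 8.44% in the replicates, against 3.32% ± 1.13 (4.12% and 2.52%) over all shared sites. HH made up 1.32% ± 0.00999, against 0.315% ± 0.214. Hemimethylated calls, MC and CM, were lower, at 11.2% ± 1.27 against 14.9% ± 0.701. An HM, MH or HH call was made in both replicates at 2288 recurrent sites (15.6%), against 6.31% of all shared sites. Each other duplex form that holds hmC was thus more frequent at recurrent sites in both replicates, while mC opposite C was less frequent.

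The same pattern appeared when a single replicate chose the sites and the other was read. At sites chosen in replicate 2, CC made up 30.1% of the remaining calls of replicate 1, against 23.1% at the rest, and MM 50.9% against 57.9%. At sites chosen in replicate 1, CC was 22.2% in replicate 2 against 19.8%, and MM 57.5% against 62.2%. As a percent of all calls of the replicate not used for the choice, CC was also higher in both directions. It was 27.5% against 22.2% in replicate 1 and 20.2% against 19.1% in replicate 2. As a percent of the remaining calls, HM and MH were 6.31% against 4.05% in replicate 1 and 6.06% against 2.42% in replicate 2. As a percent of all calls they were 5.75% against 3.90% and 5.52% against 2.34%.

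**Figure D3:**
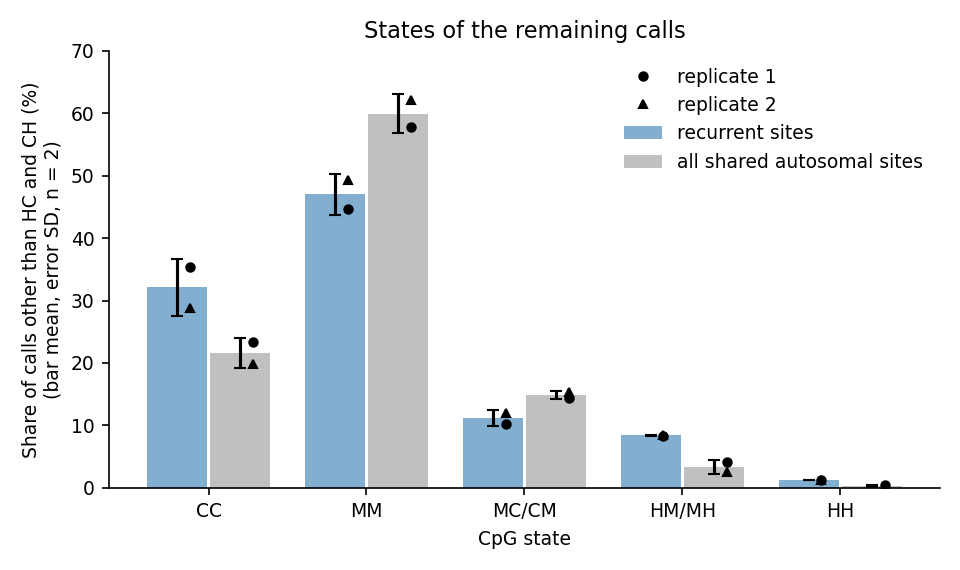
Share of calls other than HC and CH (percent, y axis) in each other CpG state (x axis) at recurrent sites and at all shared autosomal sites; bars give the mean, error bars the SD (n = 2), circles replicate 1 and triangles replicate 2. As shares of these remaining calls, CC, HM/MH and HH are higher at recurrent sites in both replicates, and MM and MC/CM are lower; as a percent of all calls, CC is lower in replicate 2.

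Recurrent sites were most frequent where molecules were a mixture of CC and MM. Shared sites were grouped by the share of MM among their CC and MM calls, summed over the replicates. Of sites with 20 to 40% MM, 1.36% were recurrent, and of those with 40 to 60%, 1.06%, against 0.327% of all shared sites. At sites where all such calls were CC the share was 0.142%, and where all were MM it was 0.152%. Both CC and MM were called at 85.5% of recurrent sites and 68.3% of all shared sites. This is so although recurrent sites have fewer CC and MM calls in which to find both states, since HC and CH take at least 25% of their depth.

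By annotation, recurrent sites lay more often in exons and first introns than shared sites did, and less often in promoters and outside genes. Classes were given from protein-coding genes in the order promoter (within 1000 bp of a start site), exon, first intron, other intron. Exons held 1352 recurrent sites (9.20%, 95% interval 8.74 to 9.68), against 5.91% of shared sites, a ratio of 1.56. First introns held 2962 (20.2%, 19.5 to 20.8), against 15.3%, a ratio of 1.31. In both classes the share of sites that were recurrent was above the chromosome's mean on 19 of 19 autosomes. Other introns held 4203 (28.6%), close to their 27.8% of shared sites. These ratios do not allow for depth, which differed between classes. At the mean levels and each site's own depth, 53.7 recurrent sites were expected in exons and 117.8 in first introns. In other introns 213.1 were expected, and outside genes 351.3. Set against these expected numbers, the excess in exons was about as large as that in first introns. How far depth enters the ratios of 1.56 and 1.31 was not tested.

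Promoters held 383 recurrent sites (2.61%, 2.36 to 2.88), against 3.67% of shared sites, a ratio of 0.710, and lay below the mean on all but 4 autosomes. At the mean levels and each site's own depth, 33.2 were expected in promoters. The class outside protein-coding genes held 5789 (39.4%), against 47.3%, a ratio of 0.833, and lay below the mean on all 19. The mean HC plus CH level of all shared sites followed a similar order, with 5.12% and 4.74% in exons, 2.68% and 2.70% in promoters and 3.63% and 3.23% outside genes in replicates 1 and 2. With the level of each annotation class used for its sites, 874.7 sites were expected over all classes, a ratio of 16.8.

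Close to start sites recurrent sites were rare. Within 200 bp of a protein-coding start site 0.135% of shared sites were recurrent, and from there to 500 bp 0.213%. The share was highest between 5000 and 10000 bp, at 0.489%, and was 0.160% beyond 100000 bp. The median distance to a start site was 25594 bp for recurrent sites and 45652 bp for all shared sites. CpG density gave a peak too. The share was 0.164% where no other CpG lay within 100 bp, 0.607% with 5 to 7 others, and 0.0957% with 12 or more. In that densest group 93.5% of calls were CC in replicate 1, against 33.4% in the group with 5 to 7.

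Recurrent sites had a median of 3 other CpGs within 100 bp, against 2, and a median G and C content of 49.5% in that window, against 44.6%. Soft-masked repeats held 8.40% of them and 10.5% of shared sites. The plots of recurrent sites by MM and CC balance, CpG density and distance show these shares in full. These features are not independent of each other, and their separate parts were not tested.

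**Figure D4:**
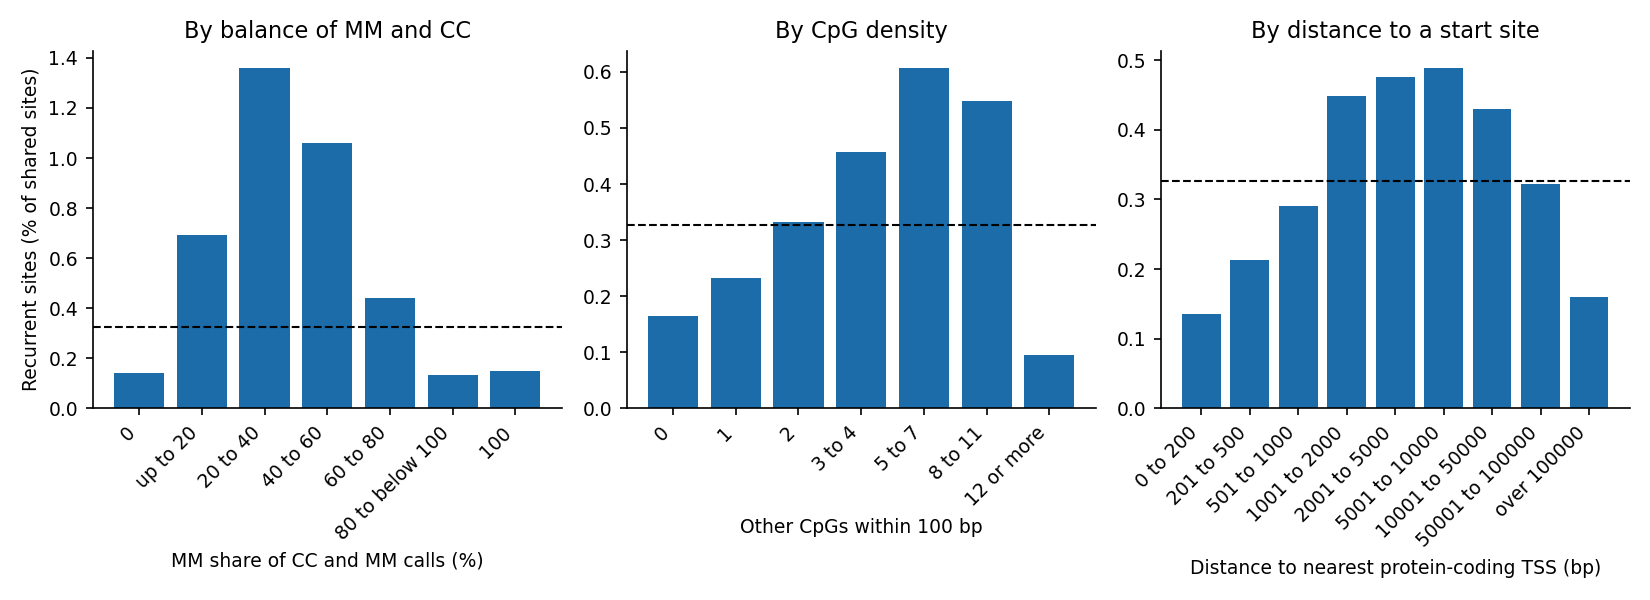
Percent of shared sites that were recurrent (y axes, each with its own scale) by the MM share of CC and MM calls, by the number of other CpGs within 100 bp, and by distance to the nearest protein-coding start site (TSS); the dashed line marks all shared sites at 0.327%. The shares peak at 20 to 40% MM (1.36%), at 5 to 7 CpGs (0.607%) and between 5000 and 10000 bp (0.489%).

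The bases beside the CpG differed from those of shared sites. Sites were grouped by the base before and after the CpG read from either strand, which gives 10 groups. ACGG (CCGT on the other strand) made up 21.9% of recurrent and 15% of shared sites, a ratio of 1.46. For CCGG the ratio was 1.36, and for ACGT 1.15. ACGG and CCGG were above the mean on 19 of 19 autosomes. The lowest ratios were those of GCGC (0.487), TCGA (0.527) and GCGA (0.538), which were above the mean on no autosome. Of the printed sites, the one in Slc12a8 has ACGG, those in Enah and Mov10 have its other strand CCGT, and the F3 promoter site has TCGA, a group in which 540 of 313720 sites were recurrent. ACGG was above GCGC in every annotation class. For ACGG the share of sites that were recurrent was 0.429% in promoters and 0.727% in exons, and for GCGC 0.0496% and 0.169%. Mean HC plus CH over all sites differed between the groups as well, with 4.82% and 4.44% for ACGG and 2.89% and 2.57% for GCGC in replicates 1 and 2.

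Neither strand was preferred over the recurrent sites as a whole. HC made up 50.1% of 46383 HC and CH calls in replicate 1 (95% interval 49.6 to 50.5) and 50.2% in replicate 2 (49.6 to 50.7). Within genes hmC lay on the coding strand in 49.9% of HC and CH calls in replicate 1 and 50.6% in replicate 2. In the sum of the replicates both HC and CH were called at 12626 recurrent sites (86.0%). Most sites thus showed hmC on either strand in different molecules. With several HC and CH calls at every recurrent site, random orientation would also give both forms at most of them. The share expected from random orientation was not calculated. This count therefore does not show whether sites with a single orientation were more frequent than that.

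Orientation was only weakly shared between replicates. A leading orientation, more HC than CH calls or the reverse, existed in each replicate at 8372 recurrent sites, and it was the same in both at 4738 of them (56.6%, 55.5 to 57.7). Among other shared sites with at least 2 HC or CH calls in each replicate the share was 57.9% (57.1 to 58.7), so the intervals of recurrent and other sites overlapped. At sites with palindromic flanks, where both strands have the same neighbouring bases, agreement was 54.7% (52.6 to 56.9), and at the other recurrent sites 57.2% (56.0 to 58.5). Where all HC and CH calls of each replicate had to lie in a single orientation, the share was 60.4%, and with at least 3 calls in each replicate it was 53.8%.

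No single site had an excess of HC over CH or the reverse that passed the test. Of 18817 shared sites with at least 6 HC or CH calls in the sum of the replicates, 0 (0%) had an adjusted p under 0.05 in a two-sided exact binomial test with Benjamini-Hochberg adjustment, and 0 of the 6173 recurrent sites among them. At an unadjusted p under 0.05 there were 1864 sites (9.91%), among them 559 recurrent ones (9.06% of those tested), a share near the background. With random orientation an exact test puts a share of at most 0.05 of sites there, and both shares were above this. The tested sites as a set thus leaned to a single strand more often than independent calls of random orientation would, at recurrent and other sites alike. Whether the calls of a site were independent was not tested, and no molecular identifiers are described. The smallest p was 0.000977 and the smallest adjusted p 0.327 (exact test). With at most 14 HC and CH calls at any site, this depth cannot show an excess confined to a few sites after adjustment. The count of 0 does not show that excesses are absent.

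The strand of hmC differed with the neighbouring bases. At recurrent ACGA sites, whose other strand reads TCGT, 59.1% of 6789 HC and CH calls in replicate 1 had hmC on the ACGA strand (58.0 to 60.3), and 58.7% of 4900 in replicate 2 (57.3 to 60.1). At other shared sites of this group the values were 60.5% and 61.8%. In HM and MH calls the ACGA strand held hmC in 67.6% and 68.8% at recurrent sites, and in 60.7% and 69.7% at other shared sites. In MC and CM calls the ACGA strand held mC in 46.7% and 45.3% at recurrent sites, and in 49.3% and 49.4% at other shared sites. In this group mC was thus not called more often on the strand on which hmC was called more often. Miscalls were not measured by neighbouring bases. At recurrent ACGG sites hmC lay on the ACGG strand in 53.3% and 52.8% of HC and CH calls. There mC in MC and CM calls lay the same way, with 51.9% (49.7 to 54.0) and 53.2% (50.6 to 55.8), so hmC and mC were not set apart in that group. Over all recurrent sites the base before hmC was A in 39.4% and 38.7% of HC and CH calls, while A stood before 35.7% of the strands. At other shared sites it was 39.1% and 37.6% of calls against 32.0% of strands, a wider gap than at recurrent sites.

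Recurrent sites lay near each other. Counted from each recurrent site, 5.04% of the shared sites 1 to 10 bp away were recurrent too, 15.4 times the 0.327% over all shared sites. The share was 1.86% at 51 to 100 bp, 0.794% between 500 and 1000 bp and 0.526% between 50000 and 100000 bp, where it was still 1.61 times that over all sites. Within 1000 bp it was 1.33%. Neighbouring CpGs on the same short fragment are read from the same molecules, so the shares at the smallest distances do not come from separate calls. Between 200 and 1000 bp, beyond the fragments, the share was 0.904%, 2.76 times that over all sites. Pairs of recurrent sites up to 50 bp apart had the same leading strand in 107 of 160 cases (66.9%, 59.0 to 74.1), whereas between 200 and 1000 bp it was 114 of 243 (46.9%, 40.5 to 53.4).

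**Figure D5:**
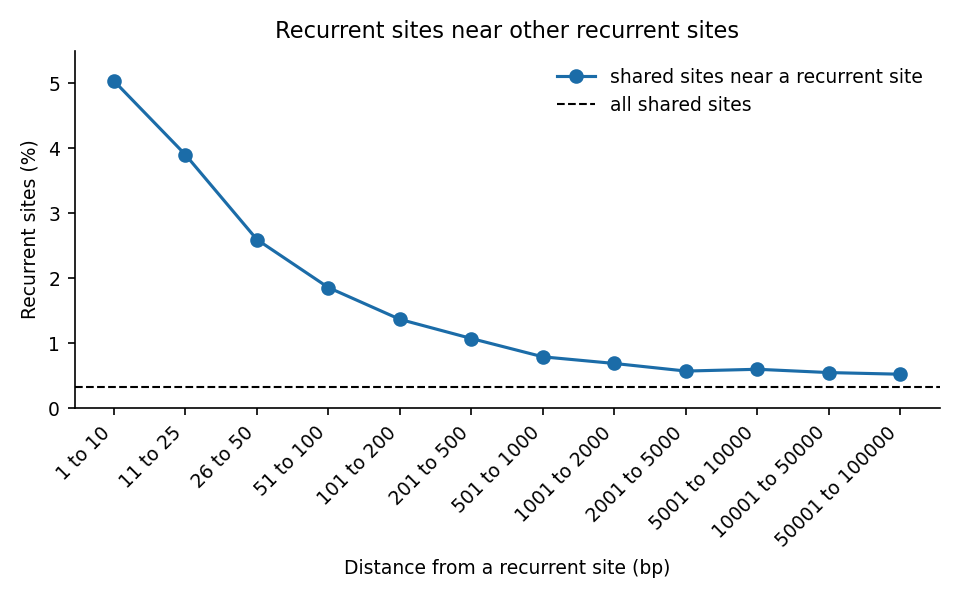
Percent of shared sites that were recurrent (y axis) by distance from a recurrent site (x axis, bp); the dashed line marks all shared sites at 0.327%. The share goes from 5.04% at 1 to 10 bp to 0.526% between 50000 and 100000 bp and stays above the line at each distance shown.

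Most recurrent sites stood alone all the same, as sites this rare would in any case. Another recurrent site lay within 500 bp of 955 of them (6.50%). Only sites in both replicates could be counted, with 13676795 sites deposited for replicate 1 and 4918612 for replicate 2. Many neighbouring CpGs were therefore not eligible. With gaps of at most 500 bp joined, 13734 had no other recurrent site in reach, 446 runs held 2, 17 held 3 and 3 held 4. The runs of 4 lay in an intron of Lmf1, a lipase maturation factor gene, and across exon and intron of Helb (a DNA helicase) and Daglb (a diacylglycerol lipase). The 2 shortest runs of 3 are printed because their CpGs lie close enough to share fragments, with each recurrent CpG and its neighbouring bases in capitals (GRCm38.p6, plus strand).
chr15:96675801-96675840, outside protein-coding genes, nearest start site Slc38a2: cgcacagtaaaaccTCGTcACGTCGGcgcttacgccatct
chr15:73755367-73755428, coding exon of Ptp4a3: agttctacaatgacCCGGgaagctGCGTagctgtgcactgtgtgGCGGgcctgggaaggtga

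In the run near Slc38a2, an amino acid transporter gene, HC and CH made up 30.3% of 33 calls in replicate 1 and 62.5% of 16 in replicate 2. In the Ptp4a3 exon, which encodes a protein tyrosine phosphatase, they made up 50.0% of 28 calls and 43.8% of 16. All 3 shared CpGs from the first to the last recurrent site of each run were recurrent. The lower-case CpGs printed near Slc38a2 lie outside that run and were not part of this count. The Lmf1 run spanned 412 bp with 4 recurrent sites among 6 shared, and HC and CH made up 27.7% and 27.8% of calls over those 6.

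Along the chromosomes, the share of recurrent sites ran from 0.263% on chromosome 3 to 0.423% on chromosome 11. Of 2367 windows of 1 Mb with at least 500 shared sites, 465 held none, the median was 0.218% and the highest value, 1.30%, was 35 of 2686 sites at chr5:137000000-137999999. That window holds Epo, the erythropoietin gene, in whose annotated span of 50.2 kb 6 of 169 shared sites were recurrent (3.55%).

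Among protein-coding genes with at least 50 shared sites, 4382 of 10427 had a recurrent site and 243 had 5 or more. The highest shares were found in Unc13d (5 of 55 sites, 9.09%), which acts in granule exocytosis, Wdr43 (7 of 149, 4.70%), a ribosome biogenesis factor, Tnfrsf8 (6 of 130, 4.62%), which encodes CD30, and Ptp4a3 (5 of 123, 4.07%). Over all shared sites of Unc13d HC plus CH was 13.0% in replicate 1 and 12% in replicate 2, against 4.01% and 3.60% over all shared sites. Pde4a (a cAMP phosphodiesterase), Kat6a (a histone acetyltransferase), Zmynd8 (a chromatin reader), Ggnbp1 and Mtmr12 had 2.53% to 3.11%. These genes were ranked by the recurrent sites themselves, so the order is a description.

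By number, the annotated spans with most recurrent sites were long ones. Gm20388, a span of 4435 kb that takes in Gse1, held 85 of 14387 sites, and the annotated span of Fgfr2 (a fibroblast growth factor receptor gene), 2961 kb, held 36 of 7311. Sites were counted over the whole annotated span, whatever other genes lie in it. Because the ranking is by number, the shorter genes in it have the higher shares by construction. The counts were 13 of 920 (1.41%) in Arhgef3, 11 of 802 (1.37%) in Clybl, 12 of 1093 (1.10%) in Gse1 and 16 of 1726 (0.927%) in Magi1, which encodes a junctional scaffold. Camta1, Etl4, Gm37240 and Pde4d held 16, 12, 11 and 11.

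Some genes of the methylation machinery and of stem cell identity held recurrent sites. In the TET genes with Tdg, the glycosylase that removes further oxidised mC, 6 of 957 sites were recurrent (0.627%), of which 5 lay in Tet1 and 1 in Tet2. In DNA methyltransferases and Uhrf1 it was 6 of 766 (0.783%), with 3 in Dnmt3a, 2 in Dnmt3l and 1 in Uhrf1. The pluripotency factors had 6 of 1091 (0.55%), 5 of them in Esrrb and 1 in Tfcp2l1. Pou5f1, Nanog, Sox2, Klf4, Klf2, Prdm14, Zfp42, Sall4 and Lin28a had none, with between 11 and 111 shared sites each. Formative and primed genes had 1 of 227 (0.441%), in Otx2. Lineage regulators had 4 of 801 (0.499%), 3 in Gata4 and 1 in Pax3. Housekeeping genes had 1 of 161 (0.621%), in Rpl3. All 6 lists were above the 0.327% of all shared sites, as gene bodies were in general, and with 1 to 6 recurrent sites a list their order cannot be read.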

How the data were processed

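SCoTCH-seq data of 2 replicates of E14 mESCs were used. The authors filtered and split reads with Cutadapt 4.6, aligned them with BSBolt to mm10, removed duplicates with Picard 3.1.1 and assigned a CpG state to each read pair; they discarded sites under 5 calls, in blacklisted regions or with repeated calling errors. The deposited files hold the count of each state at each CpG site and, as a percent of its depth, its level. Replicates were kept apart, and counts were summed here for the shared sites. Positions were checked against the reference GRCm38.p6, and genes were taken from GENCODE vM21. The members and gene lists were chosen with earlier results of these data known.

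Expected numbers were sums over sites of binomial probabilities at each site's depth. Proportions have exact (Clopper-Pearson) 95% intervals. HC and CH calls of a site were compared by a two-sided exact binomial test, adjusted by Benjamini-Hochberg over all sites tested. Named sites had at least 10 calls in each replicate and the 12 highest levels in the lower replicate; named runs were the 5 with most members, ties going to the shorter run, and named genes the 10 with most members and the 10 with the highest share (at least 5 members and 50 shared sites). Alternatives were other levels, depths, minimum calls, mean levels, windows and each replicate alone. Binomial terms came from SciPy 1.17.1, with tables held in pandas 2.3.3 and figures drawn by Matplotlib 3.10.9, under Python 3.11.15; the scripts were tested on simulated data, the strand test at a higher depth than these sites have, since it made no calls at theirs. The oligonucleotide spike-ins were not used.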

Additional observations from a re-analysis of the deposited data

Results flagged for a closer look

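On the X and Y chromosomes, which the rule leaves out, 58 of 25549 sites present in both replicates had HC plus CH at or above 25% in each (0.227%, against 0.327% on autosomes). This value is shown because it lies outside the data used above. The difference from autosomes was not tested.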

How the results depend on the processing

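The number of sites followed the limits set. With 20% or 30% in place of 25% there were 51499 and 6092 sites (11543 and 177.5 expected, ratios 4.46 and 34.3). With at least 8 or 10 calls per replicate there were 2404 and 382 (72.6 and 2.06 expected, ratios 33.1 and 185), and with at least 3 HC or CH calls in each 2765 (19.8 expected, ratio 140). In a single replicate there were between 130374 and 150370. The expected number was 1684 with 100 kb window levels (ratio 8.72), and ratios of 16.8 and 16.7 were found with levels of the annotation class and of the flanking bases, the latter added after seeing the data. Levels in replicate 2 of sites chosen in replicate 1 were 8.15%, 9.68% and 9.39% for 20%, 30% and at least 8 calls, and in the other direction 7.51%, 9.17% and 8.93%. The share in promoters or gene bodies, 60.6% (52.7% of shared sites), was 58.4% with at least 3 calls and 59.8% with promoters of 500 bp. Orientation agreement was 55.0% at 20%, 53.8% with at least 3 calls and 60.4% for undivided calls. The share with at least 3 other CpGs within 100 bp was 51.4% (34.3% of shared sites). It was 52.6% at 30% and 48.9% with at least 3 HC or CH calls. With at least 8 calls it was 48.0%, against 30.4% of shared sites of that depth. Within 250 bp it was 89.1% (74.4% of shared sites). Within 1 kb 1.33% of sites were recurrent, against 3.39% at 20%, 0.657% at 30%, 1.48% with at least 8 calls and 0.339% with at least 3 HC or CH calls (1.15%, 0.136%, 0.299% and 0.0615% of all sites then recurrent), and it was 1.74% within 500 bp, 0.770% within 5 kb and 0.904% between 200 and 1000 bp, the last added after seeing the data. The other 32 of 75 alternative values, among them those for CC and MM and with X and Y included, stayed within the error of the value reported or, for numbers of sites, near it. For some of them this was fixed, or nearly so, in advance. The error for CC and MM was the SD of 2 replicates, and each replicate alone always lies within it (CC 35.3% and 28.9%). The strand test could pass at this depth only if strong excesses were found at many sites, and X and Y add 58 sites only. No paired analysis was possible because the samples form 1 group. Replicate 2 limits all of this: most of its levels rest on 2 HC or CH calls, so the level of a single site is uncertain.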

Other observations

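A small group of 173 recurrent sites had HC plus CH at or above 50% in each replicate, and 382 had at least 10 calls in each. Exactly 25% was measured at 3137 recurrent sites in replicate 1 and at 1522 in replicate 2.

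The strand shares of other groups are given here for recurrent sites and then for other shared sites. At CCGA sites 56.8% and 56.3% of HC and CH calls had hmC on the CCGA strand and not on TCGG, in replicates 1 and 2, and in HM and MH calls it was 60.4% and 64.0%. At other shared CCGA sites the values were 57.2% and 58.7% of HC and CH calls, and 57.2% and 60.6% of HM and MH calls. At ACGC sites the ACGC strand had 55.9% and 58.4% of HC and CH calls, and 59.2% and 55.8% of HM and MH calls, against 56.3% and 58.4%, and 54.7% and 60.6%, at other shared sites. At CCGC sites the CCGC strand had 56.1% and 57.1% of HC and CH calls, but 50.6% (46.5 to 54.6) and 52.8% (48.0 to 57.6) of HM and MH calls, with intervals that include 50%. At other shared CCGC sites these were 52.4% and 54.8%, and 50.6% and 51.3%. For GCGA the values were 51.6% and 51.6%, with intervals that include 50%, while HM and MH calls gave 61.2% and 64.3%. At other shared GCGA sites HC and CH calls gave 55.7% (55.4 to 55.9) and 54.2% (53.9 to 54.6), and HM and MH calls 58.6% and 63.5%.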
